A study of Mus musculus with 17 samples.

Results

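The genes described here are the matrix proteases of the C2C12 transcriptome and the proteins that restrain or resemble them: the matrix metalloproteases (Mmp), their tissue inhibitors (Timp), the membrane-anchored disintegrin proteases (Adam), the secreted thrombospondin-type disintegrin proteases (Adamts) and the Adamts-like proteins (Adamtsl). They were chosen by symbol alone, as every gene whose symbol is Mmp, Timp, Adam, Adamts or Adamtsl followed by a number and at most a single letter a or b. The rule found 41 of the 15062 genes in the table of counts: 12 Mmp, 3 Timp, 13 Adam, 9 Adamts and 4 Adamtsl genes. In the GENCODE M21 annotation 84 symbols match the same rule, and the other 43, among them Mmp3, Timp4 and Adamts9, are not analysed here. The rule itself uses no measured value, but the members were chosen with earlier results of these data known. Every gene in the table of counts reaches 10 counts in 3 or more libraries.

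C2C12 is a mouse myoblast line that grows in serum and can be made to differentiate into myotubes. All libraries came from C2C12 cells in DMEM with fetal bovine serum, and the lines differ in what they are labelled as carrying: pMSCV (a retroviral vector with no insert named, the control), SRF (serum response factor, a transcription factor of growth and muscle genes), SRF-FOXO1, SRF-ICA1L, SRF-PDGFRB or SRF-RELA, the last 4 named for fusions of SRF to a partner. Each line has 3 libraries, numbered 1 to 3, except SRF-PDGFRB with 2, which makes 17 libraries of 20901442 to 23543734 counts. Nothing in the labels says whether a line is a clone or a pool, of which species the insert is, or whether replicates are separate cultures, so p-values measure only the spread between these libraries, which may be technical. All comparisons with pMSCV share the same 3 control libraries, and all comparisons with SRF share the same 3 SRF libraries.

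All 7 myoblast markers looked for (Myod1, Myf5, Des, Cdh15, Itga7, Pax7 and Msc) were in the table. Their summed level was 1489 to 1747 CPM (counts scaled to a common library total with TMM factors) in pMSCV, 722 to 1295 in SRF, 458 to 1063 in SRF-ICA1L, 381 to 703 in SRF-RELA and 223 to 294 in SRF-FOXO1. The SRF-PDGFRB libraries lay at 231 (replicate 1) and 1987 (replicate 2), beyond both ends of the pMSCV range. The markers found of immune, endothelial, epithelial and adipocyte cells (2 of 4, 1 of 3, 1 of 3 and 1 of 3) summed to at most 7.62, 2.72, 0.553 and 1.37 CPM in any library. In bulk RNA, fewer cells of a type and less RNA per cell cannot be told apart.

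Matrix metalloproteases are secreted or membrane-bound enzymes that cut collagens and other matrix proteins, and most are made as inactive precursors. Membrane-type Mmp14 activates the gelatinase Mmp2 at the cell surface together with Timp2, so that a TIMP can both block and assist a protease. ADAM proteases shed growth factors and receptors from the cell surface, ADAMTS proteases cut proteoglycans or trim procollagens, and ADAMTSL proteins carry ADAMTS-type repeats without a protease domain. In muscle these enzymes are known for migration, fusion and matrix repair, with Adam12 named for its link to myoblast fusion.

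The proteases share a zinc-binding motif of 11 codons, in which 3 histidines hold the metal and a glutamate takes part in catalysis. It is shown here because it marks the protease domain, a feature the choice by symbol did not use. A search of the GENCODE M21 coding sequences on GRCm38 found it in 29 of 41 members: all 12 Mmp genes, all 9 Adamts genes, the 7 Adam genes known as active proteases, and Adam1a. It was not found in the 3 Timp genes, the 4 Adamtsl genes or in Adam5, Adam11, Adam22, Adam23 and Adam32. The coding strands below are written 5′ to 3′ from chr8:92839279-92839311 (plus strand), chr14:54437627-54437659 (plus), chr7:139987893-139987925 (minus), chr7:133961158-133961190 (minus), chr9:90179456-90180640 (plus) and chr10:61225465-61227123 (minus). All are exonic, the Adamts7 and Adamts14 runs are joined from 2 exons, and capitals mark the codons of the 3 histidines and the glutamate.
Mmp2: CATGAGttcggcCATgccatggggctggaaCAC
Mmp14: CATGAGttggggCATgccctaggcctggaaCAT
Adam8: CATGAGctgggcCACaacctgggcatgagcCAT
Adam12: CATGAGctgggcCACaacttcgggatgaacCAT
Adamts7: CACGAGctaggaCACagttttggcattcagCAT
Adamts14: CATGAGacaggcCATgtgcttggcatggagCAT

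Levels between genes were set side by side as CPM per kilobase of exon. Timp2 stood first with a median of 300.5 over the 17 libraries, before Mmp2 at 195, Timp1 at 175, Adam9 at 80.4, Mmp14 at 64.2, Timp3 at 33.7 and Adam10 at 26.6. The high end of the family in these cells was thus made up of inhibitors, the Mmp14 and Mmp2 pair, and ADAM sheddases. At the other end were Mmp24 at 0.0489 and Mmp9, the second gelatinase, at 0.0388. In plain CPM the library median was at least 100 for 7 members, from 10 to 100 for 17, from 1 to 10 for 11 and under 1 for 6.

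The 3 TIMPs held a median of 49.0% of the members' summed CPM per kilobase (32.6 to 69.7% over libraries). The gelatinases held 18.9% (6.51 to 34.9%), the 7 protease ADAMs 12.2% (7.36 to 17.3%), the membrane-type MMPs 6.52%, the ADAMTSL proteins 3.83% and the proteoglycan-cleaving ADAMTS 1.70%. The summed Mmp level was 147 CPM per kilobase in pMSCV replicate 1 and 653 in replicate 2 of the same line. The ratio of summed TIMP to summed MMP level was 2.87, 0.727 and 6.01 in the pMSCV libraries, 1.55, 1.83 and 4.78 in SRF, 0.692, 1.63 and 1.03 in SRF-FOXO1, 2.94, 0.995 and 2.97 in SRF-ICA1L, 1.80 and 3.15 in SRF-PDGFRB and 1.37, 0.763 and 2.84 in SRF-RELA. The ratio overlapped between pMSCV and every other line. In pMSCV, SRF-ICA1L and SRF-RELA replicate 2 was the lowest of the 3 and the only library of its line under 1.

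**Figure D1:**
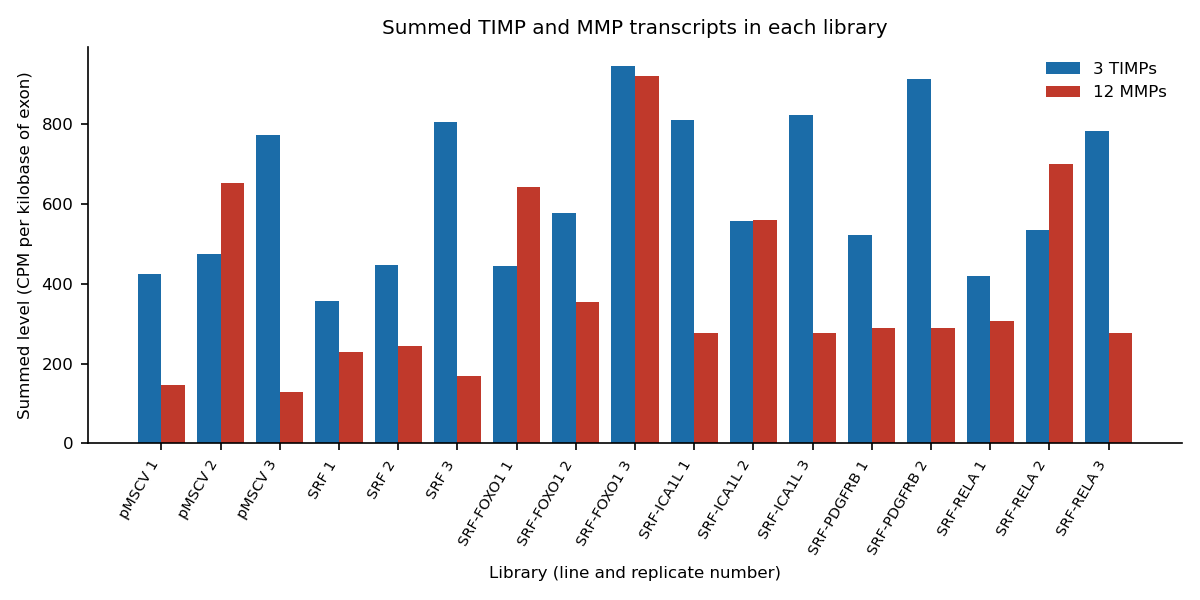
Summed level of the 3 Timp genes and of the 12 Mmp genes (bars, from 0) in each of the 17 libraries, in CPM per kilobase of exon. The TIMP sums lie between 356 and 946 and the MMP sums between 129 and 921, with the lowest MMP sum in pMSCV replicate 3 and the highest in SRF-FOXO1 replicate 3.

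In the lines whose replicate numbers pair, the number took a larger share of the variance than the line. Over 12 libraries (SRF-RELA, SRF-ICA1L, SRF and pMSCV, 3 each), the number accounted for a median of 46% of a member's variance in log2 CPM, and the line for 24.8%. Over all genes the medians were 49.7% and 19.6%. With edgeR, 25 of 41 members differed with replicate number at an adjusted p under 0.05, against 52.0% of all genes tested. These lines were kept because their same-numbered libraries correlated, so a large share for the number was favoured by that choice. The labels do not say what the number marks.

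Adam23 (93.3% of variance with the replicate number), Mmp28 (84.8%), Mmp19 (81.3%) and Adamts1 (77.1%) followed the number most closely. Adam22 (70.1% with the line), Adamts7 (69%), Adam17 (59.4%), Timp3 (58.2%), Adamtsl3 (53.9%) and Adam12 (51.5%) followed the line most closely. Mmp2 averaged 536, 1313 and 457 CPM over the 4 libraries numbered 1, 2 and 3, and Timp1 averaged 226, 129 and 413. On these averages Mmp2 was highest, and Timp1 lowest, in the libraries numbered 2. Timp1 was not lowest there in SRF (132 CPM in replicate 1 and 156 in replicate 2). Its average at number 1 held 472 CPM in SRF-ICA1L replicate 1, against 132 to 157 in the other lines. The other inhibitors, Timp2 (842, 1242 and 1153 CPM) and Timp3 (252, 317 and 289), were both highest at number 2.

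**Figure D2:**
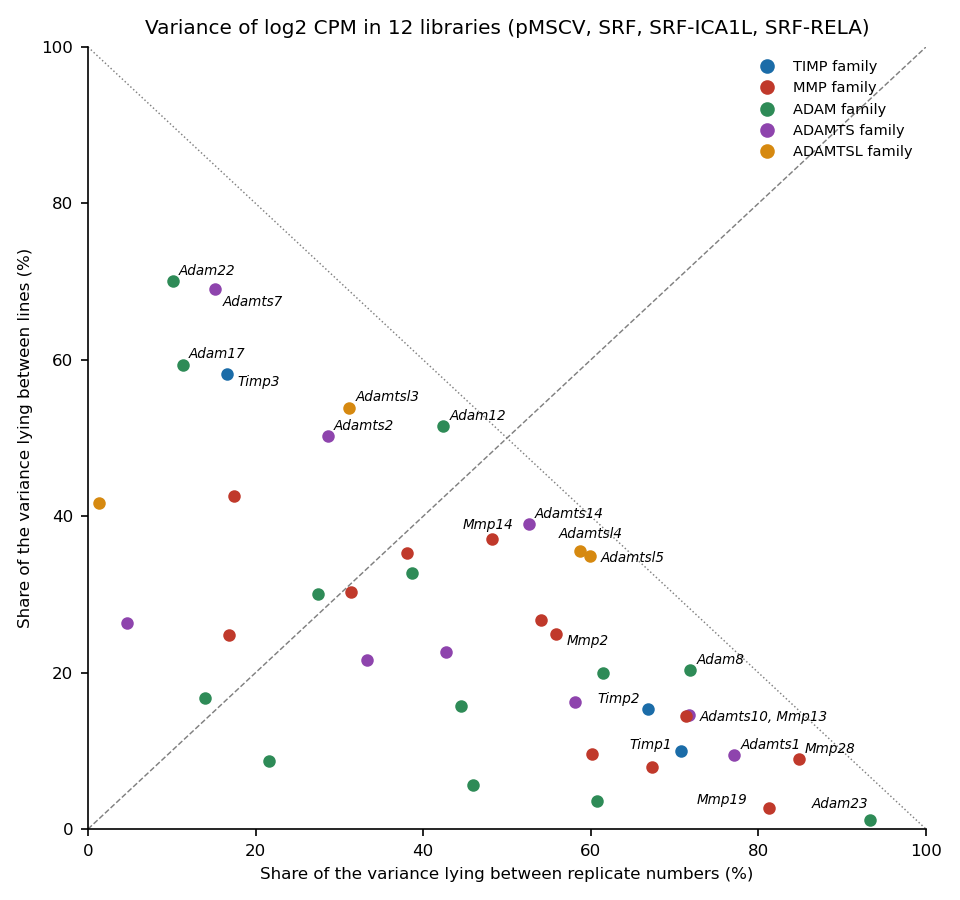
For each of the 41 members, the share of variance in log2 CPM lying between replicate numbers (x, percent) and between the lines pMSCV, SRF, SRF-ICA1L and SRF-RELA (y, percent) in 12 libraries. Points under the dashed diagonal, 28 of 41, vary more with replicate number than with line. The lines shown were kept because their replicate numbers pair.

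In several members pMSCV replicate 2 stood apart from the other pMSCV libraries, and the SRF-PDGFRB libraries stood apart from each other. Among the controls, replicate 2 held the highest CPM of Mmp2, Mmp14, Mmp19, Mmp23, Adamts1, Adamts2, Adamts5, Adamtsl3 and Adamtsl4. Leaving it out lowers the control level of these genes, so their fold changes against pMSCV rise by that choice. Where leaving it out changes a call against pMSCV, the call without it is also given. Such a call shows only how far the result depends on that library.

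**Figure D3:**
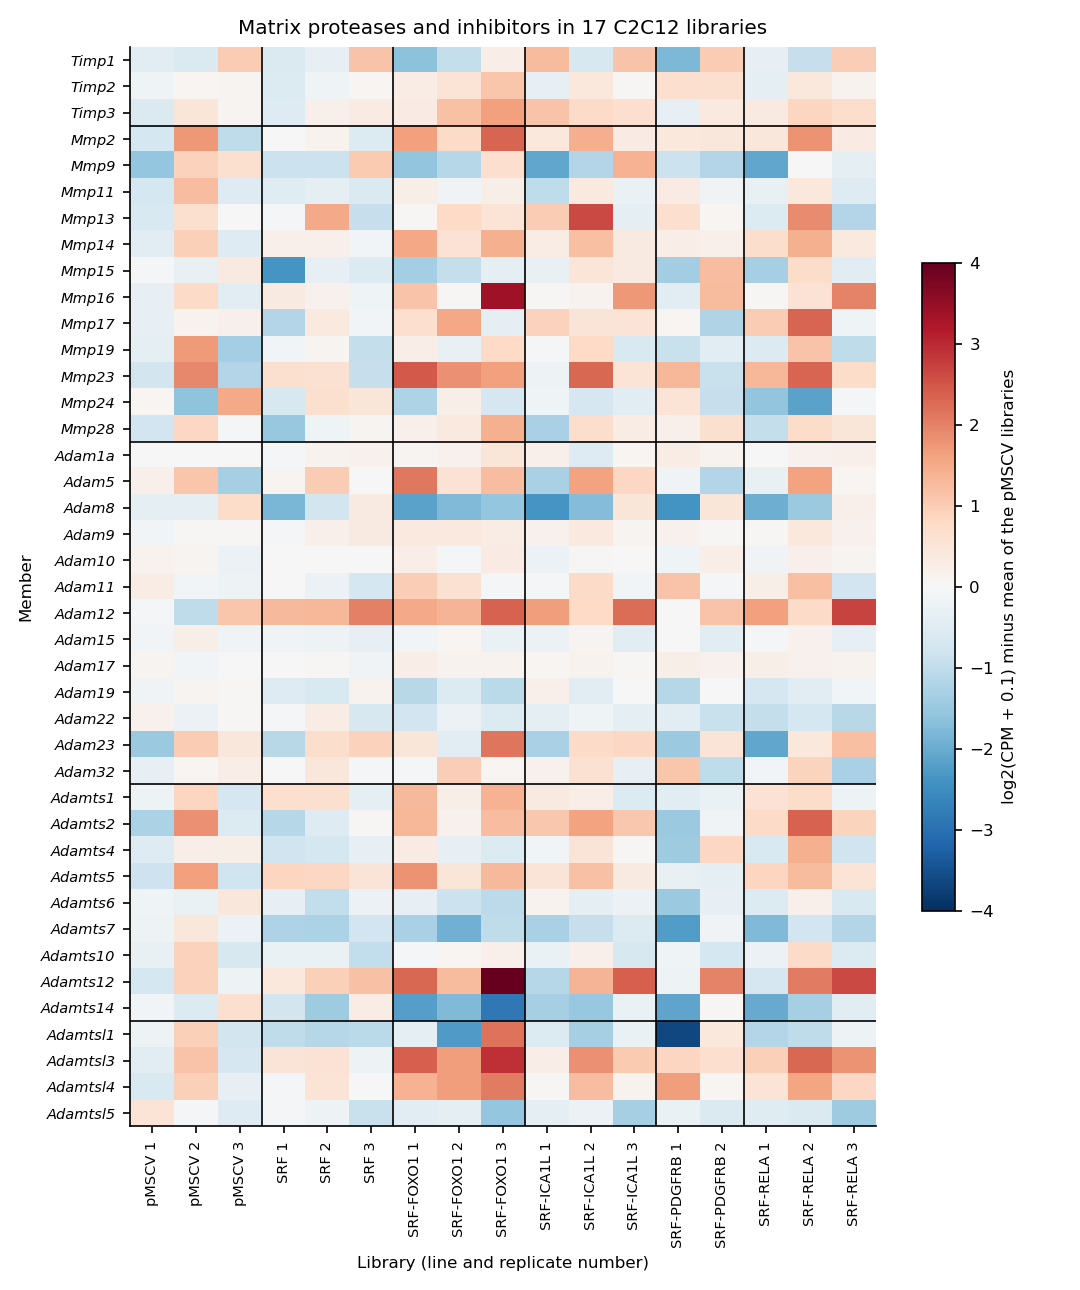
Heat map of the 41 members (rows, by family) in the 17 libraries (columns, by line and replicate), as log2 of CPM plus 0.1 minus the mean of the pMSCV libraries. Colours end at 4 in either direction; pMSCV replicate 2 is the control column with the strongest colours, and SRF-FOXO1 has Adamtsl3, Adamtsl4 and Timp3 above and Adamts14 and Adam8 below the control mean in all 3 libraries.

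The first comparison asked how the SRF-RELA line differs from the control. With replicate number as a block, 8 members passed the test: Adam12, Adamtsl3, Adamtsl4 and Mmp14 rose, and Adamts14, Adamts7, Adamtsl5 and Adam8 fell. These are a fusion-linked sheddase, a pair of matrix-binding ADAMTS-like proteins and the activator of Mmp2 on the higher side, and a procollagen N-proteinase, a COMP-cutting protease, an ADAMTS-like protein and a leukocyte-type sheddase on the lower. In that fit 6.48% of all genes passed, 3.19% higher and 3.29% lower, against 19.5% of the members. Without the block, in the fit of all 17 libraries, edgeR called 0 members and 0.00% of all genes. At an unadjusted p under 0.05 that fit held 5 members and 8.05% of genes, and DESeq2 called 0 of 39 members and 0.770% of genes. With the number as a block over all 17 libraries, edgeR called 0 members and 0 genes, so the 8 calls were not made in that fit.

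In the blocked SRF-RELA comparison, Adam12 and Adamtsl4 stayed called in all 12 fits that left out a library. Adamts14 was lost without pMSCV replicate 1, Adamtsl5 without SRF-RELA replicate 1, and Adamts7 without pMSCV replicate 1, SRF-RELA replicate 1 or SRF-RELA replicate 3. Adamtsl3 was called in 8 of 12 fits, and Adam8 and Mmp14 in 3 of 12. The count became 3 without pMSCV replicate 1, 4 without SRF-RELA replicate 1, 5 without SRF-RELA replicate 2 and 4 without SRF-RELA replicate 3. It became 13 without pMSCV replicate 2, where 8.08% of all genes passed: Adam22 fell, Mmp2, Mmp23, Adamts1, Adamts2 and Adamts5 rose, and Adam8 was no longer called. For the other fits that left out a library the share of all genes is not given. Their counts show only how far the calls depend on single libraries.

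The SRF-ICA1L line was compared in the same way. With the block, Adam12 rose and Adamts14 and Adamtsl5 fell against pMSCV, 3 of 41 members where 2.99% of all genes passed. All 3 were also called in SRF-RELA with the same sign, and the comparisons share their controls. Without the block edgeR called 0 members and 0.00% of genes. There, 2 members and 6.23% of genes had an unadjusted p under 0.05, and DESeq2 called 0 of 39 members and 0.318% of genes. The block over all 17 libraries gave 0 members and 0 genes here too. When single libraries were left out of the 12, Adam12 was called in 9 of 12 fits, Adamts14 in 7 and Adamtsl5 in 4. The blocked count became 0 without pMSCV replicate 1, without SRF-ICA1L replicate 1 or without SRF-ICA1L replicate 2. It became 1 without SRF-RELA replicate 3, 5 without pMSCV replicate 3 and 6 without SRF replicate 2. Without pMSCV replicate 2 it became 8, with 3.66% of genes: Adamts2, Adamts5, Adamtsl4, Mmp14 and Mmp2 then also rose. The other counts with a library left out are given without a share of all genes and show only dependence on single libraries.

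Between SRF-FOXO1 and pMSCV, Adamts12, Adamtsl3 and Mmp16 had the highest fold changes among members that averaged at least 1 CPM, and Adamts14, Adam8 and Adamts7 the lowest, but 0 members passed at an adjusted p under 0.05 in the fit of 17 libraries, where 0.710% of all genes did. The median log2 fold change of the 41 members was 0.37, with 25 above 0, while over all genes it was 0.00077, with 50.1% above 0. SRF-RELA against pMSCV also had 25 members above 0 in that fit, at a median of 0.10. At an unadjusted p under 0.05 edgeR held 14 members and 20.9% of genes: 9 were higher (10.3% of genes) and 5 lower (10.6%). The libraries of the lines did not overlap for 15 members and 23.0% of genes. Of these, 8 lay higher in SRF-FOXO1 (Timp2, Adam1a, Adam9, Adam12, Adam17, Adamts12, Adamtsl3 and Adamtsl4; 11.4% of genes) and 7 lower (Mmp15, Adam8, Adam19, Adam22, Adamts6, Adamts7 and Adamts14; 11.6% of genes).

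DESeq2 called 7 members between SRF-FOXO1 and pMSCV (Adam19, Adamts7, Adamts12, Adamts14, Adamtsl3, Adamtsl4 and Timp3), with 9.07% of genes. Without pMSCV replicate 2 edgeR called 5, all higher, and 2.36% of genes: Adamts5 (log2 fold change ± standard error 2.11 ± 0.37, edgeR adjusted p = 0.04), Adamtsl3 (log2 fold change 2.98 ± 0.54, edgeR adjusted p = 0.04), Mmp14 (log2 fold change 1.72 ± 0.37, edgeR adjusted p = 0.0441), Mmp2 (log2 fold change 2.55 ± 0.56, edgeR adjusted p = 0.0447) and Adamtsl4 (log2 fold change 2.21 ± 0.51, edgeR adjusted p = 0.0468). That library held the highest control CPM of each of the 5, so its removal raised their fold changes. These calls are therefore no separate support for a rise. Leaving out any of the other pMSCV or SRF-FOXO1 libraries left the count at 0, and libraries of the other lines were not left out of that fit. The myoblast markers given above were lower in the same 3 SRF-FOXO1 libraries, with a median log2 fold change of -2.70, and their part in these values was not tested.

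A fusion line can also be set against the line labelled SRF alone. With the block and only these lines in the fit, Timp2, Timp3 and Adamtsl4 rose in SRF-FOXO1, 3 of 38 members tested, where 1.57% of genes passed and 0.746% rose. Leaving out single libraries was not run for that fit, and the block over all 17 libraries gave 0 members (1 gene in all). In the fit of 17 libraries edgeR called 0 members and 0.00664% of genes. That fit held 9 members at an unadjusted p under 0.05 (19.2% of genes), 8 of them higher (11.1%) and 1 lower (8.11%). DESeq2 called 3 of 38 members (Timp2, Adamtsl3 and Adamtsl4) and 4.30% of genes, and edgeR on the SRF-FOXO1 and SRF libraries alone called Adamtsl3 and Adamtsl4 (528 genes in all). The median log2 fold change of the 41 members in the fit of 17 libraries was 0.55, with 30 above 0. Over all genes it was 0.0083, with 50.7% above 0. In the same fit SRF-ICA1L had 31 members above 0 against SRF (median 0.31), SRF-RELA 30 (0.29) and SRF-PDGFRB 22 (0.058).

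With edgeR and all libraries, the SRF line itself showed no called member against pMSCV. In 17 libraries edgeR called 0 members and 0.00664% of genes, 2 members had an unadjusted p under 0.05 (3.34% of genes), and DESeq2 called 0 members and 0.0266% of genes. With the block the values were 0 members and 0.0137% of genes, 9 members unadjusted (15.1% of genes) and, with DESeq2, 2 of 38 members, Adam12 and Adamts7 (2.16% of genes). Without pMSCV replicate 2 edgeR with the block called Adamts5 (9 genes in all). Without pMSCV replicate 3 it called Adam12 and Adamts7 (89 genes in all).

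In SRF-PDGFRB edgeR called 0 members and 0.0199% of genes against pMSCV, with 2 members at an unadjusted p under 0.05 (7.70% of genes) and 0 of 39 members with DESeq2 (0.475% of genes). Against SRF edgeR called 0 members and 0.0531% of genes, with 1 member unadjusted (5.03% of genes) and 0 with DESeq2 (0.386% of genes). The 2 SRF-PDGFRB libraries were far apart in several members, as Timp1, Adam8, Adamts7 and Adamts14 show below, and these 2 libraries do not pair with the other lines. The block over all 17 libraries gave 0 members against pMSCV (50 genes in all) and 0 against SRF (32 genes in all).

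With edgeR and all libraries in the fit, SRF-ICA1L and SRF-RELA held no called member against SRF. For SRF-ICA1L edgeR called 0 members and 0.00% of genes, 2 members unadjusted (1.56% of genes) and 0 with DESeq2 (0.0133% of genes). With the block it called 0 (0.0956% of genes), 5 unadjusted (9.08% of genes) and, with DESeq2, Timp3 alone (1.23% of genes). For SRF-RELA edgeR called 0 members and 0.00664% of genes, 4 members unadjusted (3.21% of genes) and 0 with DESeq2 (0.0599% of genes). With the block it called 0 (0.656% of genes), 11 unadjusted higher (9.45% of genes) and 3 unadjusted lower (7.53% of genes), and, with DESeq2, Adamtsl3, Adamtsl4 and Mmp14 (3 of 38 members, 4.67% of genes). Leaving out a library gave 0 or 1 member there, except without pMSCV replicate 2, where Adamts2, Adamtsl4, Adamtsl5, Mmp14 and Mmp2 were called (432 genes in all).

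**Figure D4:**
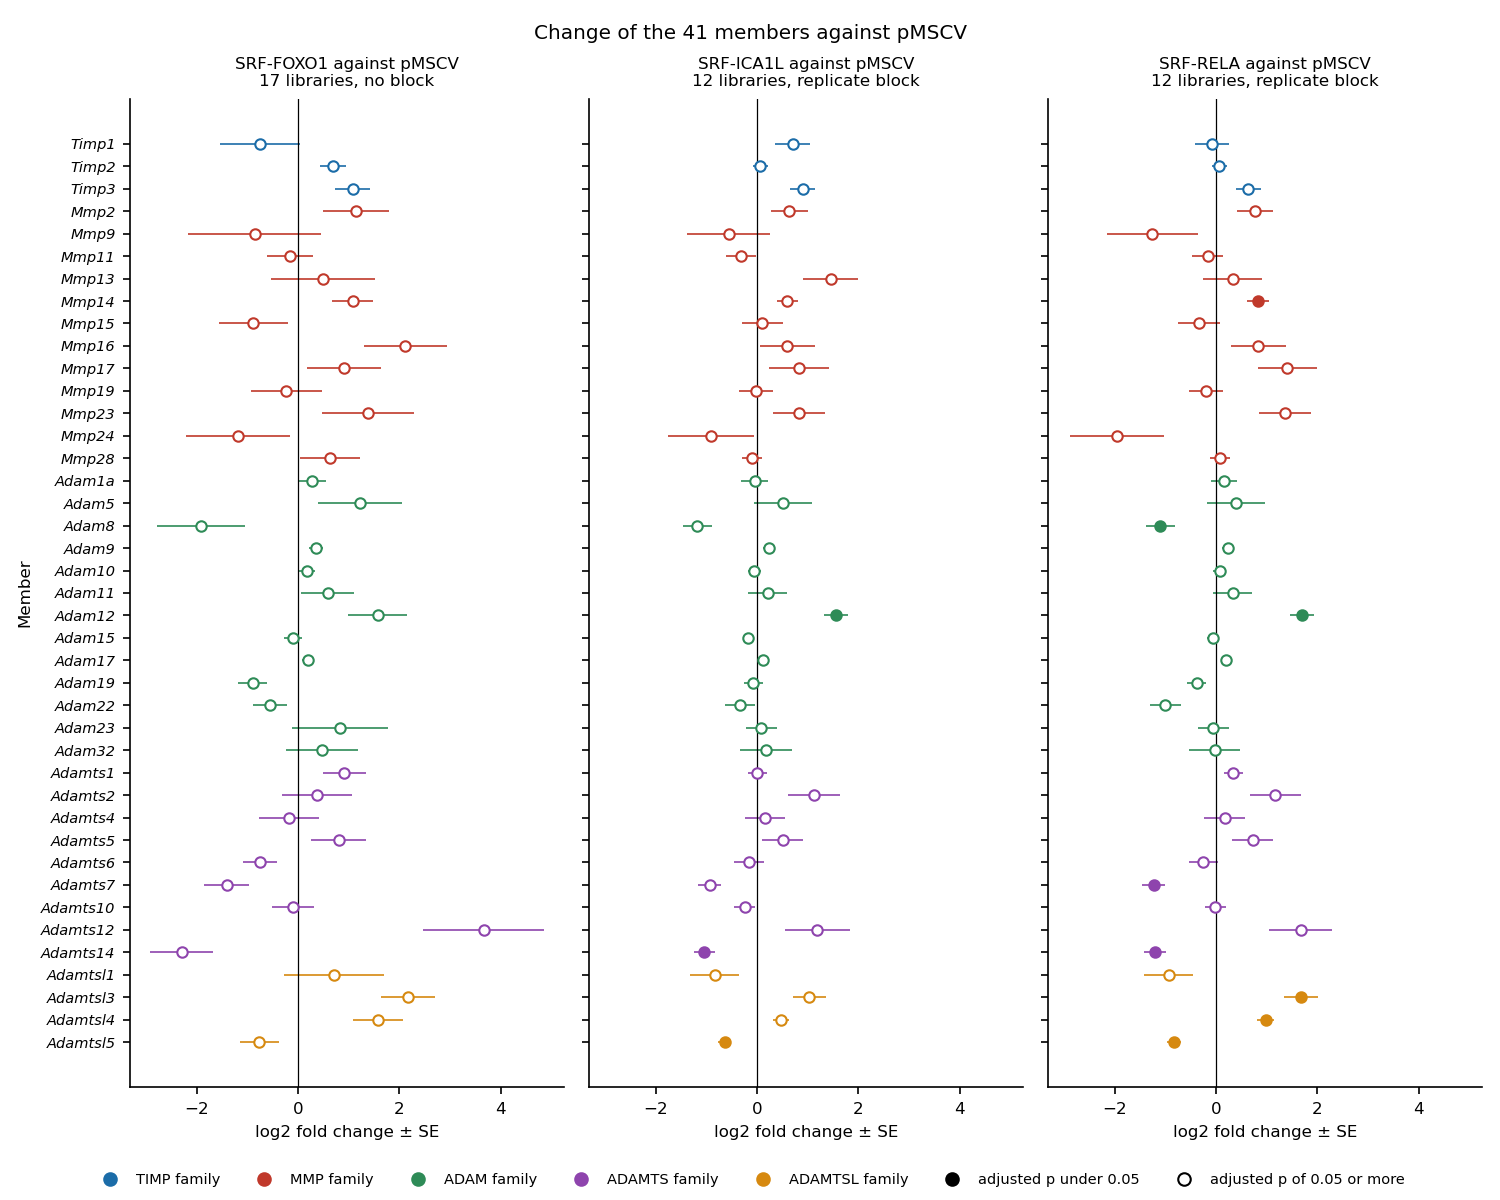
Log2 fold changes with standard errors of the 41 members against pMSCV, for SRF-FOXO1 in the fit of 17 libraries and for SRF-ICA1L and SRF-RELA with the replicate block in 12 libraries. Filled marks passed an adjusted p under 0.05: 0 members of SRF-FOXO1, 3 of SRF-ICA1L and 8 of SRF-RELA.

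The inhibitors come first by role. Timp2 (ENSMUSG00000017466, chr11:118301069-118355740, minus strand), which blocks most MMPs and helps Mmp14 to activate Mmp2, had CPM of 949.7, 1129 and 1171 in pMSCV, 739, 948 and 1128 in SRF, 1332, 1582 and 2338 in SRF-FOXO1, 863, 1451 and 1124 in SRF-ICA1L, 1707 and 1696 in SRF-PDGFRB and 818, 1441 and 1188 in SRF-RELA. The 3 SRF-FOXO1 libraries lay above all pMSCV and SRF libraries, and so did both SRF-PDGFRB libraries. Against SRF, Timp2 rose in SRF-FOXO1 with the block (log2 fold change 0.90 ± 0.14, edgeR adjusted p = 0.0495), while in 17 libraries the value was a log2 fold change of 0.90 ± 0.26, edgeR adjusted p = 0.179. In SRF-PDGFRB it had a log2 fold change of 0.65 ± 0.29, edgeR adjusted p = 0.612 against pMSCV.

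Timp3 (ENSMUSG00000020044, chr10:86300372-86349506, plus strand), the matrix-bound inhibitor that also acts on ADAM and ADAMTS proteases, had CPM of 138, 291 and 224 in pMSCV, 145, 239 and 262 in SRF, 259, 464 and 655 in SRF-FOXO1, 458, 356 and 333 in SRF-ICA1L, 167 and 274 in SRF-PDGFRB and 269, 380.2 and 338 in SRF-RELA. All SRF-ICA1L libraries were above all pMSCV and SRF libraries, while SRF-FOXO1 overlapped them at replicate 1. Against SRF it rose in SRF-FOXO1 with the block (log2 fold change 1.06 ± 0.15, edgeR adjusted p = 0.0477). Against pMSCV it had a log2 fold change of 1.08 ± 0.35, edgeR adjusted p = 0.112 in SRF-FOXO1 and, with the block, 0.90 ± 0.25, edgeR adjusted p = 0.0826 in SRF-ICA1L. In the annotation 21.3% of Timp3 exon bases lie under exons of Syn3 on the opposite strand, and without a stated strand setting their reads cannot be told apart.

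Timp1 (ENSMUSG00000001131, chrX:20870166-20874735, plus strand), a secreted inhibitor known for its response to serum and cytokines, had CPM of 145, 132 and 396 in pMSCV, 132, 156 and 430.1 in SRF, 62.5, 102 and 235 in SRF-FOXO1, 472, 125 and 438 in SRF-ICA1L, 56.1 and 394 in SRF-PDGFRB and 157, 104 and 388 in SRF-RELA. Replicate 3 was the highest library in pMSCV, SRF, SRF-FOXO1 and SRF-RELA, and every line overlapped pMSCV. SRF-PDGFRB replicate 1 was the lowest library of all, while replicate 2 lay with the high replicate 3 libraries. It had a log2 fold change of -0.75 ± 0.79, edgeR adjusted p = 0.624 in SRF-FOXO1 against pMSCV.

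Among the MMPs, the gelatinase Mmp2 (ENSMUSG00000031740, chr8:92827291-92853420, plus strand), which cuts denatured collagen and collagen IV, had CPM of 306, 1631 and 243 in pMSCV, 504, 541 and 339.9 in SRF, 1534, 838 and 2478 in SRF-FOXO1, 658, 1343 and 623 in SRF-ICA1L, 657 and 676 in SRF-PDGFRB and 677, 1738 and 622 in SRF-RELA. In pMSCV, replicate 2 was several-fold above the other libraries, and it overlapped every other line. Without pMSCV replicate 2, as given above, Mmp2 rose in SRF-FOXO1, and with the block it rose in SRF-ICA1L (log2 fold change 1.26 ± 0.23, edgeR adjusted p = 0.0223) and SRF-RELA (log2 fold change 1.42 ± 0.24, edgeR adjusted p = 0.00897). With all 17 libraries it had a log2 fold change of 1.15 ± 0.65, edgeR adjusted p = 0.33 in SRF-FOXO1.

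Mmp14 (ENSMUSG00000000957, chr14:54431612-54445364, plus strand), the membrane-type collagenase that activates Mmp2, had CPM of 221, 582 and 211 in pMSCV, 348, 348 and 277 in SRF, 887, 451 and 807 in SRF-FOXO1, 372, 689 and 383 in SRF-ICA1L, 365 and 349.6 in SRF-PDGFRB and 487, 807 and 398 in SRF-RELA. It had the same high pMSCV replicate 2, and in SRF-ICA1L and SRF-RELA replicate 2 was again the highest of the 3. With the block it rose in SRF-RELA (log2 fold change 0.83 ± 0.22, edgeR adjusted p = 0.0486), and in SRF-FOXO1 it had a log2 fold change of 1.08 ± 0.40, edgeR adjusted p = 0.154 in 17 libraries.

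Mmp16 (ENSMUSG00000028226, chr4:17852893-18119145, plus strand), another membrane-type MMP, had CPM of 3.27, 7.05 and 2.99 in pMSCV, 5.32, 4.62 and 3.62 in SRF, 9.24, 4.22 and 44.5 in SRF-FOXO1, 4.29, 4.55 and 13.8 in SRF-ICA1L, 3.03 and 9.97 in SRF-PDGFRB and 4.26, 6.25 and 16.5 in SRF-RELA. A single SRF-FOXO1 library, replicate 3, was far above the rest, and replicate 2 of that line lay within the pMSCV range. The SRF-FOXO1 value against pMSCV was a log2 fold change of 2.12 ± 0.82, edgeR adjusted p = 0.165.

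Mmp19 (ENSMUSG00000025355, chr10:128790910-128800824, plus strand), a secreted MMP that cuts basement membrane proteins, had CPM of 15.5, 64.8 and 7.76 in pMSCV, 18.3, 21.3 and 10.2 in SRF, 23.7, 16.3 and 34.9 in SRF-FOXO1, 19.0, 34.9 and 12.9 in SRF-ICA1L, 10.6 and 14.8 in SRF-PDGFRB and 13.7, 44.4 and 9.70 in SRF-RELA. All lines overlapped pMSCV, in which replicate 2 was again highest, and 28.3% of Mmp19 exon bases are shared with other genes. In SRF-PDGFRB it had a log2 fold change of -1.21 ± 0.82, edgeR adjusted p = 0.819 against pMSCV.

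Mmp13 (ENSMUSG00000050578, chr9:7272514-7283331, plus strand), the collagenase of the list, and Mmp9 (ENSMUSG00000017737, chr2:164940780-164955850, plus strand), the second gelatinase, were near the limit of detection. Mmp13 had CPM of 0.184, 0.573 and 0.327 in pMSCV, 0.318, 1.14 and 0.131 in SRF, 0.349, 0.656 and 0.535 in SRF-FOXO1, 0.770, 2.63 and 0.229 in SRF-ICA1L, 0.597 and 0.356 in SRF-PDGFRB and 0.196, 1.51 and 0.0933 in SRF-RELA, with the highest level of SRF, SRF-ICA1L and SRF-RELA in replicate 2. Mmp9 had CPM of 0.0461, 0.705 and 0.561 in pMSCV, 0.136, 0.137 and 0.784 in SRF, 0.0436, 0.0938 and 0.580 in SRF-FOXO1, 0, 0.0893 and 1.01 in SRF-ICA1L, 0.138 and 0.0890 in SRF-PDGFRB and 0, 0.319 and 0.233 in SRF-RELA. No line was apart from pMSCV in either gene, and Mmp9 rested on 0 to 22 counts a library. In SRF-ICA1L Mmp13 had a log2 fold change of 1.73 ± 1.02, edgeR adjusted p = 0.861 against pMSCV.

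The other 6 MMPs passed no test between lines at an adjusted p under 0.05 in any of the fits with all libraries. With replicate number, Mmp11, Mmp15, Mmp23 and Mmp28 did differ in the blocked fit (edgeR adjusted p = 0.0131, 0.0497, 0.00735 and 0.000403). Mmp17 and Mmp24 did not. Mmp11 (stromelysin 3) ranged over the 17 libraries from 24.6 to 116 CPM, Mmp28 (epilysin) from 5.95 to 45.5, Mmp15 from 0.772 to 10.5 and Mmp23 from 0.421 to 6.32. Mmp17 ranged from 0.133 to 2.56 and Mmp24, with 0 counts in its lowest library, reached 1.17.

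**Figure D5:**
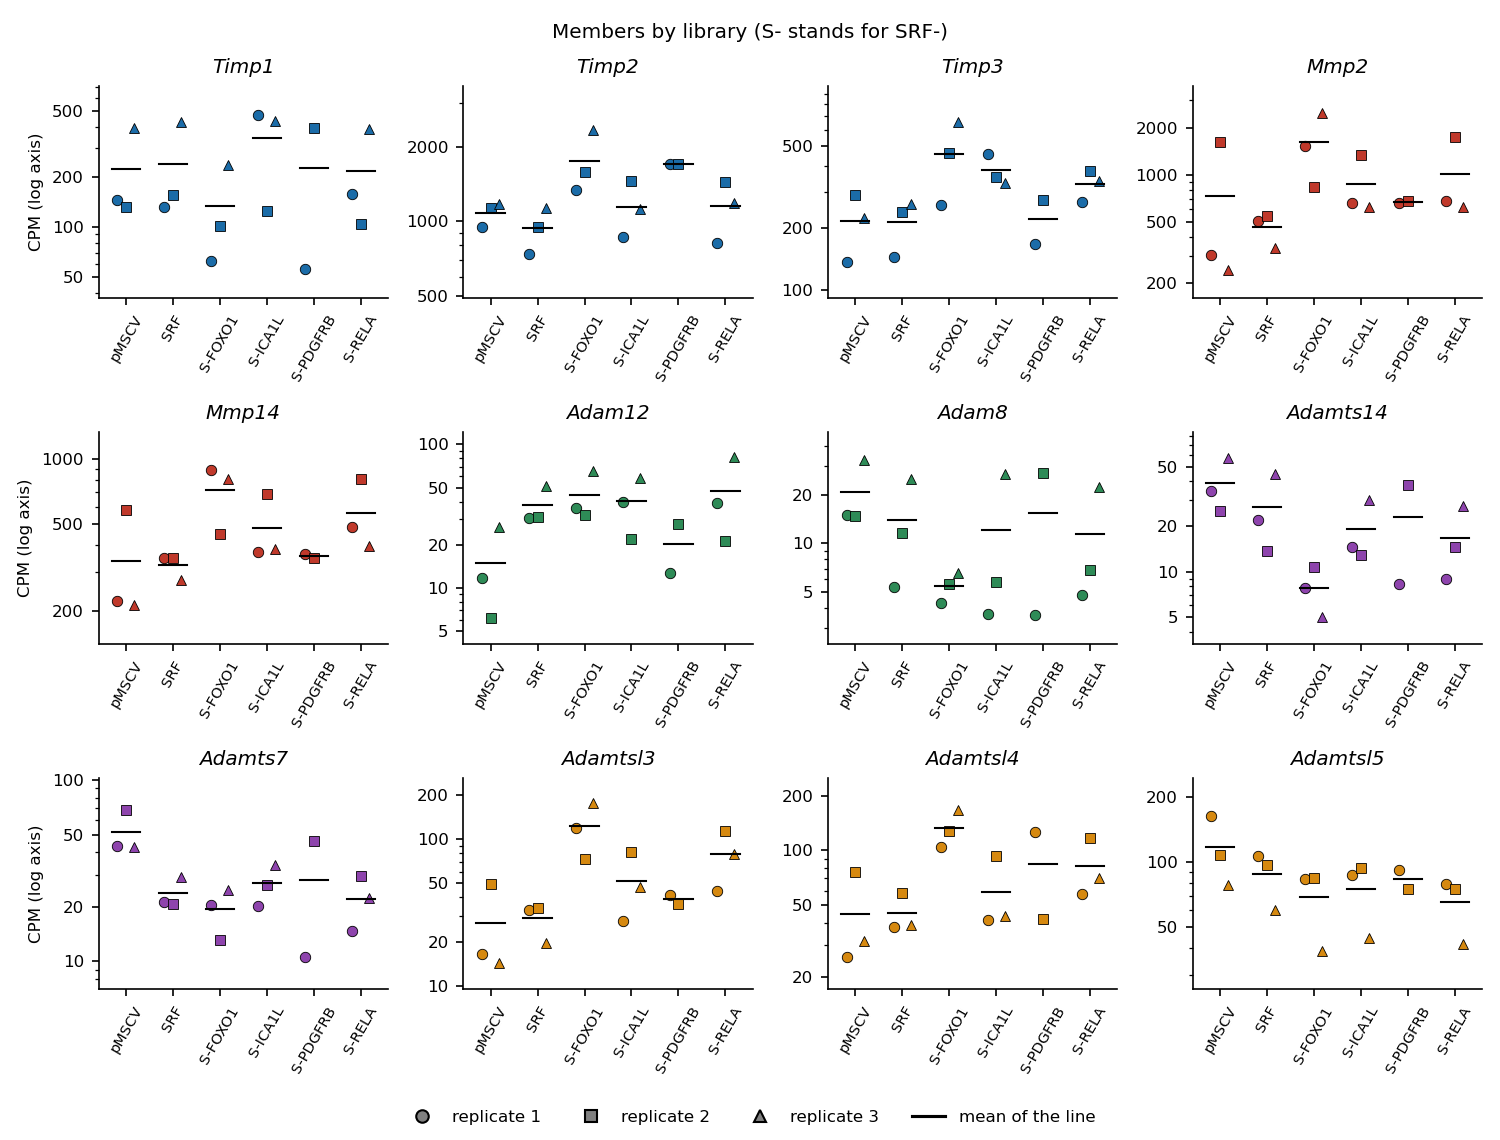
CPM (log axis) of 12 members in each library, by line, with a mark for each replicate number and a horizontal line at the mean. At every number Adam12 is lowest in pMSCV, and Adamts14 is highest in pMSCV among the lines with 3 libraries.

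Adam12 (ENSMUSG00000054555, chr7:133883199-134232146, minus strand), the meltrin that is known from fusing myoblasts and can shed the growth factor HB-EGF, had CPM of 11.8, 6.13 and 26.8 in pMSCV, 30.9, 31.3 and 51.1 in SRF, 36.1, 32.03 and 65.2 in SRF-FOXO1, 40.0, 21.8 and 58.7 in SRF-ICA1L, 12.7 and 27.9 in SRF-PDGFRB and 38.9, 21.3 and 81.7 in SRF-RELA. All SRF and SRF-FOXO1 libraries were above all pMSCV libraries. SRF-ICA1L and SRF-RELA were above pMSCV at each replicate number, while pMSCV replicate 3 exceeded replicate 2 of SRF-ICA1L and SRF-RELA. Mean CPM was 14.9 ± 10.7 (SD, n = 3) in pMSCV and 47.3 ± 31.1 (SD, n = 3) in SRF-RELA, so the spread within a line was wide. With the block Adam12 rose in SRF-RELA (log2 fold change 1.70 ± 0.24, edgeR adjusted p = 0.00424) and in SRF-ICA1L (log2 fold change 1.56 ± 0.24, edgeR adjusted p = 0.0124).

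In the SRF line the blocked Adam12 value was a log2 fold change of 1.57 ± 0.24, edgeR adjusted p = 0.094, of like size but not past the threshold. Against SRF itself Adam12 had a log2 fold change of 0.13 ± 0.23, edgeR adjusted p = 0.803 in SRF-RELA and -0.01 ± 0.23, edgeR adjusted p = 0.993 in SRF-ICA1L. In SRF-FOXO1 it had a log2 fold change of 1.58 ± 0.59, edgeR adjusted p = 0.152 against pMSCV.

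Adam8 (ENSMUSG00000025473, chr7:139978932-139992562, minus strand), a sheddase best known from leukocytes, had CPM of 14.9, 14.7 and 32.4 in pMSCV, 5.41, 11.6 and 24.8 in SRF, 4.32, 5.63 and 6.56 in SRF-FOXO1, 3.66, 5.76 and 26.9 in SRF-ICA1L, 3.63 and 27.0 in SRF-PDGFRB and 4.85, 6.89 and 22.3 in SRF-RELA. All SRF-FOXO1 libraries lay below all pMSCV libraries, and replicate 3 was the highest in all lines with 3 libraries. With the block Adam8 fell in SRF-RELA (log2 fold change -1.11 ± 0.29, edgeR adjusted p = 0.0476), and in SRF-ICA1L it had a log2 fold change of -1.18 ± 0.29, edgeR adjusted p = 0.0578. It had a log2 fold change of -1.91 ± 0.87, edgeR adjusted p = 0.231 in SRF-FOXO1. Of the SRF-PDGFRB libraries, replicate 1 was the lowest of all and replicate 2 lay within the pMSCV range.

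Adam19 (ENSMUSG00000011256, chr11:46055992-46147343, plus strand), meltrin beta, a neuregulin sheddase, had CPM of 79.8, 95.0 and 91.5 in pMSCV, 62.2, 57.4 and 96.8 in SRF, 41.1, 60.4 and 41.5 in SRF-FOXO1, 102, 64.1 and 87.4 in SRF-ICA1L, 40.3 and 89.2 in SRF-PDGFRB and 55.7, 66.6 and 82.1 in SRF-RELA. Every SRF-FOXO1 library was below every pMSCV library, with a log2 fold change of -0.90 ± 0.29, edgeR adjusted p = 0.114, while the other lines overlapped pMSCV.

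The general sheddases were the steadiest members. Adam17 (ENSMUSG00000052593, chr12:21323509-21373632, minus strand), the TNF convertase, had CPM of 96.5, 82.6 and 91.0 in pMSCV, 89.6, 93.5 and 80.8 in SRF, 108, 99.3 and 99.98 in SRF-FOXO1, 95.7, 100.1 and 93.8 in SRF-ICA1L, 105 and 100.3 in SRF-PDGFRB and 105, 102 and 98.6 in SRF-RELA, and its highest library was only 1.34 times its lowest. Adam10 (ENSMUSG00000054693, chr9:70678997-70780229, plus strand), which cuts Notch and cadherins, had CPM of 143, 141 and 110.1 in pMSCV, 131, 129 and 129.6 in SRF, 156, 123 and 165 in SRF-FOXO1, 112, 135 and 131 in SRF-ICA1L, 116 and 157 in SRF-PDGFRB and 117, 151 and 142 in SRF-RELA. Every SRF-FOXO1, SRF-PDGFRB and SRF-RELA library was slightly above all pMSCV libraries in Adam17, a difference that did not pass (in SRF-FOXO1 a log2 fold change of 0.19 ± 0.11, edgeR adjusted p = 0.326). Adam9 stayed within 274 to 389 CPM and Adam15 within 52.6 to 85.2.

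Of the ADAMs without the zinc site, Adam11, Adam22 and Adam23 are known as adhesion or neuronal proteins. Adam22 (ENSMUSG00000040537, chr5:8072352-8368160, minus strand) had CPM of 1.61, 1.19 and 1.45 in pMSCV, 1.36, 1.74 and 0.872 in SRF, 0.785, 1.17 and 0.936 in SRF-FOXO1, 1.06, 1.25 and 1.05 in SRF-ICA1L, 1.01 and 0.712 in SRF-PDGFRB and 0.686, 0.821 and 0.606 in SRF-RELA. All SRF-RELA, SRF-FOXO1 and SRF-PDGFRB libraries were below all pMSCV libraries, at low counts. Without pMSCV replicate 2 Adam22 fell in SRF-RELA with the block (log2 fold change -1.26 ± 0.31, edgeR adjusted p = 0.0353), and in 17 libraries it had a log2 fold change of -0.55 ± 0.33, edgeR adjusted p = 0.354 in SRF-FOXO1. The library left out held the lowest control CPM of Adam22, so its removal raised the control level. Adam11 (ENSMUSG00000020926, chr11:102761439-102780262, plus strand) had CPM of 1.48, 1.10 and 1.03 in pMSCV, 1.18, 1.01 and 0.697 in SRF, 2.44, 1.88 and 1.11 in SRF-FOXO1, 1.11, 2.10 and 1.10 in SRF-ICA1L, 2.71 and 1.11 in SRF-PDGFRB and 1.42, 2.87 and 0.653 in SRF-RELA, with overlapping lines, and had a log2 fold change of 0.67 ± 0.58, edgeR adjusted p = 0.882 in SRF-PDGFRB. Adam23 ranged from 0.490 to 10.8 CPM, Adam5 from 0.187 to 3.01 and Adam32 from 0.0933 to 0.918. Adam1a, which holds the zinc site and shares 63.7% of its exon bases with other genes, ranged from 1.07 to 2.27 CPM.

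The procollagen-trimming pair is Adamts14 and Adamts2. Adamts14 (ENSMUSG00000059901, chr10:61197112-61273438, minus strand), a procollagen N-proteinase, had CPM of 34.1, 25.3 and 56.7 in pMSCV, 22.0, 13.6 and 44.8 in SRF, 7.80, 10.7 and 4.99 in SRF-FOXO1, 14.5, 12.8 and 30.1 in SRF-ICA1L, 8.31 and 37.7 in SRF-PDGFRB and 8.96, 14.5 and 27.1 in SRF-RELA. Every SRF-FOXO1 library was below every pMSCV library, and at each replicate number pMSCV was above SRF, SRF-ICA1L and SRF-RELA. With the block Adamts14 fell in SRF-RELA (log2 fold change -1.21 ± 0.22, edgeR adjusted p = 0.0109) and in SRF-ICA1L (log2 fold change -1.04 ± 0.22, edgeR adjusted p = 0.0324). In SRF-FOXO1 mean CPM was 7.85 ± 2.87 (SD, n = 3) against 38.7 ± 16.2 (SD, n = 3) in pMSCV, a log2 fold change of -2.30 ± 0.63, edgeR adjusted p = 0.0706.

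Adamts2 (ENSMUSG00000036545, chr11:50602084-50807573, plus strand), the main procollagen I N-proteinase, had CPM of 9.68, 82.2 and 15.8 in pMSCV, 10.5, 16.3 and 24.3 in SRF, 58.4, 26.3 and 54.9 in SRF-FOXO1, 48.9, 71.5 and 49.5 in SRF-ICA1L, 8.22 and 21.2 in SRF-PDGFRB and 39.5, 119 and 43.3 in SRF-RELA. The control library pMSCV replicate 2 was above all libraries but SRF-RELA replicate 2, so that every line overlapped pMSCV, while SRF-RELA was above pMSCV at each replicate number. With the block its SRF-RELA value was a log2 fold change of 1.17 ± 0.50, edgeR adjusted p = 0.201. Without pMSCV replicate 2 it rose in SRF-RELA (log2 fold change 2.07 ± 0.42, edgeR adjusted p = 0.0241) and SRF-ICA1L (log2 fold change 1.94 ± 0.41, edgeR adjusted p = 0.043).

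Of the proteoglycan-cutting enzymes, Adamts1 (ENSMUSG00000022893, chr16:85793827-85803113, minus strand), which cuts versican, had CPM of 56.9, 118 and 40.6 in pMSCV, 103, 100.2 and 50.2 in SRF, 161, 76.3 and 171 in SRF-FOXO1, 83.8, 78.9 and 43.9 in SRF-ICA1L, 47.3 and 53.7 in SRF-PDGFRB and 96.7, 107 and 55.8 in SRF-RELA. Adamts5 (ENSMUSG00000022894, chr16:85856173-85901828, minus strand), an aggrecanase linked to versican clearance before myoblast fusion, had CPM of 12.9, 72.0 and 13.5 in pMSCV, 42.2, 41.4 and 33.2 in SRF, 81.6, 32.8 and 56.9 in SRF-FOXO1, 33.3, 52.3 and 29.8 in SRF-ICA1L, 18.7 and 18.1 in SRF-PDGFRB and 41.8, 55.5 and 33.7 in SRF-RELA. Both were high in pMSCV replicate 2, and for Adamts5 the other pMSCV libraries lay below every library of the 5 lines. Without that library Adamts5 rose in SRF (log2 fold change 1.40 ± 0.17, edgeR adjusted p = 0.0316), SRF-ICA1L (log2 fold change 1.34 ± 0.17, edgeR adjusted p = 0.00792) and SRF-RELA (log2 fold change 1.54 ± 0.17, edgeR adjusted p = 0.00235) with the block. With it, the blocked SRF-RELA value was a log2 fold change of 0.72 ± 0.41, edgeR adjusted p = 0.341. Adamts4, the third of this kind, ranged from 4.45 to 32.3 CPM.

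Adamts7 (ENSMUSG00000032363, chr9:90163069-90208071, plus strand), which cuts the cartilage protein COMP, had CPM of 43.3, 68.7 and 42.6 in pMSCV, 21.2, 20.6 and 29.3 in SRF, 20.4, 13.1 and 24.7 in SRF-FOXO1, 20.2, 26.4 and 34.1 in SRF-ICA1L, 10.5 and 45.9 in SRF-PDGFRB and 14.6, 29.5 and 22.4 in SRF-RELA. Every pMSCV library was above every library of the other lines, except that SRF-PDGFRB replicate 2 overlapped them. With the block it fell in SRF-RELA (log2 fold change -1.23 ± 0.22, edgeR adjusted p = 0.0118). It had a log2 fold change of -0.94 ± 0.22, edgeR adjusted p = 0.0533 in SRF-ICA1L, -1.10 ± 0.22, edgeR adjusted p = 0.112 in SRF and, in 17 libraries, -1.41 ± 0.44, edgeR adjusted p = 0.103 in SRF-FOXO1.

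Adamts12 (ENSMUSG00000047497, chr15:11064790-11349231, plus strand), a relative of Adamts7, had CPM of 0.231, 0.926 and 0.374 in pMSCV, 0.636, 0.960 and 1.13 in SRF, 2.57, 1.22 and 15.9 in SRF-FOXO1, 0.144, 1.29 and 2.75 in SRF-ICA1L, 0.367 and 2.05 in SRF-PDGFRB and 0.245, 2.19 and 3.31 in SRF-RELA. The widest span among members with counts in every library was here, with a highest library 110 times the lowest, and a single library, SRF-FOXO1 replicate 3, stood far above the rest. The SRF-FOXO1 libraries were all above pMSCV, with a log2 fold change of 3.67 ± 1.19, edgeR adjusted p = 0.112. Adamts6 ranged from 12.9 to 50.5 CPM and Adamts10 from 6.49 to 24.9, with no call between lines in the edgeR fit of 17 libraries or the blocked fit of 12.

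The ADAMTS-like proteins, which bind fibrillin and other matrix proteins, supplied calls on both sides. Adamtsl4 (ENSMUSG00000015850, chr3:95676201-95687917, minus strand), linked to fibrillin microfibrils, had CPM of 25.7, 76.0 and 31.8 in pMSCV, 37.8, 58.0 and 38.9 in SRF, 105, 127 and 168 in SRF-FOXO1, 41.3, 93.0 and 43.5 in SRF-ICA1L, 126 and 41.6 in SRF-PDGFRB and 57.4, 118 and 70.2 in SRF-RELA. All SRF-FOXO1 libraries were above all pMSCV and SRF libraries, and SRF-RELA was above pMSCV at each replicate number. With the block Adamtsl4 rose in SRF-RELA against pMSCV (log2 fold change 0.98 ± 0.16, edgeR adjusted p = 0.00773) and in SRF-FOXO1 against SRF (log2 fold change 1.59 ± 0.21, edgeR adjusted p = 0.0471). Against SRF its blocked value in SRF-RELA was a log2 fold change of 0.82 ± 0.16, edgeR adjusted p = 0.0514, just short of the threshold.

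Adamtsl3 (ENSMUSG00000070469, chr7:82335694-82614450, plus strand) had CPM of 16.6, 49.7 and 14.2 in pMSCV, 32.6, 34.1 and 19.6 in SRF, 118, 72.6 and 175 in SRF-FOXO1, 27.4, 81.1 and 47.1 in SRF-ICA1L, 41.6 and 36.3 in SRF-PDGFRB and 44.4, 113 and 79.5 in SRF-RELA. Here too the SRF-FOXO1 libraries lay above all pMSCV and SRF libraries, and SRF-RELA was above pMSCV at each replicate number. With the block it rose in SRF-RELA (log2 fold change 1.69 ± 0.34, edgeR adjusted p = 0.0183). In SRF-FOXO1 it had a log2 fold change of 2.18 ± 0.53, edgeR adjusted p = 0.0558 against pMSCV, and mean CPM was 122 ± 51.0 against 26.8 ± 19.9 (SD, n = 3 each).

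Adamtsl5 (ENSMUSG00000043822, chr10:80339110-80348412, minus strand) moved the other way, with CPM of 165, 108 and 78.8 in pMSCV, 107, 97.3 and 60.2 in SRF, 83.3, 84.6 and 38.5 in SRF-FOXO1, 86.9, 94.0 and 44.4 in SRF-ICA1L, 92.3 and 74.8 in SRF-PDGFRB and 79.0, 74.7 and 41.8 in SRF-RELA. Lines overlapped across numbers, since replicate 3 was lowest in all lines with 3 libraries, but pMSCV was above SRF, SRF-ICA1L and SRF-RELA at each replicate number. With the block Adamtsl5 fell in SRF-RELA (log2 fold change -0.83 ± 0.13, edgeR adjusted p = 0.00773) and SRF-ICA1L (log2 fold change -0.64 ± 0.13, edgeR adjusted p = 0.0333).

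Adamtsl1 (ENSMUSG00000066113, chr4:85514172-86428385, plus strand), or punctin, had CPM of 2.44, 5.60 and 1.68 in pMSCV, 1.36, 1.23 and 1.31 in SRF, 2.14, 0.516 and 13.3 in SRF-FOXO1, 1.93, 1.07 and 2.38 in SRF-ICA1L, 0.138 and 3.83 in SRF-PDGFRB and 1.22, 1.37 and 2.47 in SRF-RELA. All SRF libraries were below all pMSCV libraries (log2 fold change -1.31 ± 1.01, edgeR adjusted p = 0.99), and SRF-FOXO1 replicate 3 was far above its own line. In SRF-RELA it had a log2 fold change of -0.93 ± 0.48, edgeR adjusted p = 0.291 with the block.

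Markers of the myoblast state were also called against pMSCV in the blocked fit. Of the 7, 6 fell in SRF-RELA and 4 in SRF-ICA1L (Myod1, Des, Cdh15 and Itga7), and of 10 differentiation markers 4 and 2 fell. In that fit 3.29% of all genes were called lower in SRF-RELA and 1.65% in SRF-ICA1L. In SRF-RELA 2 of the 10 differentiation markers had a fold change above 0 and were not called. The edgeR fit of 17 libraries called 0 of these markers in either line. The 4 blocked marker counts were the same without pMSCV replicate 2, with Mymk called and Myh3 no longer called in SRF-ICA1L. The summed differentiation level was 187 to 375 CPM in pMSCV, 45.6 to 130 in SRF, 71.6 to 127 in SRF-ICA1L, 43.7 to 360 in SRF-RELA and 52.4 to 88.3 in SRF-FOXO1, and 16.8 and 785 in the SRF-PDGFRB libraries. Their part in the values of the protease genes was not tested.

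Genes that act with these proteases were read from lists of activators, substrates and other matrix proteases. Of 16 activators and regulators in the table, Tspan15, a tetraspanin that steers Adam10, fell in SRF-FOXO1 in the fit of 17 libraries (log2 fold change -1.02 ± 0.21, edgeR adjusted p = 0.0483), a call lost without pMSCV replicate 2 (log2 fold change -0.98 ± 0.24, edgeR adjusted p = 0.0511). In the blocked fit it fell in SRF-RELA (log2 fold change -0.73 ± 0.16, edgeR adjusted p = 0.0233). Tspan14, a sister tetraspanin of Adam10, fell in SRF-RELA (log2 fold change -0.61 ± 0.10, edgeR adjusted p = 0.00773) and SRF-ICA1L (log2 fold change -0.57 ± 0.10, edgeR adjusted p = 0.016). Adam10 itself had a log2 fold change of 0.07 ± 0.13, edgeR adjusted p = 0.816 in SRF-RELA. When pMSCV replicate 2 was left out, Thbs1, a thrombospondin, rose in SRF-FOXO1 (log2 fold change 2.08 ± 0.38, edgeR adjusted p = 0.04) and, with the block, in SRF-RELA (log2 fold change 1.49 ± 0.30, edgeR adjusted p = 0.0199). Tspan17 and the convertase Pcsk6 then also passed in SRF-RELA, Pcsk6 at 1 to 90 counts a library. The library left out held the highest control CPM of Thbs1, Tspan17 and Pcsk6, so its removal raised their fold changes.

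Of 11 cathepsins and cystatins, the lysosomal protease Ctsl fell with the block in SRF-RELA (log2 fold change -0.66 ± 0.12, edgeR adjusted p = 0.0115) and SRF-ICA1L (log2 fold change -0.53 ± 0.12, edgeR adjusted p = 0.0436). The cathepsin inhibitor Cst3 rose in SRF-RELA against SRF (log2 fold change 0.91 ± 0.16, edgeR adjusted p = 0.0394). Of 14 shed factors and receptors, Cx3cl1, a membrane chemokine shed by Adam10 and Adam17, rose in SRF-RELA (log2 fold change 0.83 ± 0.17, edgeR adjusted p = 0.0175) and SRF-ICA1L (log2 fold change 0.84 ± 0.17, edgeR adjusted p = 0.029). Nrg1, a substrate of Adam19, rose in SRF-RELA (log2 fold change 0.70 ± 0.15, edgeR adjusted p = 0.0213), and the EGF receptor ligand Ereg rose in SRF-ICA1L (log2 fold change 1.29 ± 0.29, edgeR adjusted p = 0.0448). In SRF-ICA1L Ctsl and Ereg were no longer called without pMSCV replicate 2 (log2 fold changes -0.47 ± 0.12, edgeR adjusted p = 0.0601 and 1.27 ± 0.36, edgeR adjusted p = 0.108), while Cst3 and Ctsh then passed in SRF-RELA against pMSCV. The library left out held the highest control CPM of Cst3 and Ctsh, so its removal raised their fold changes.

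The 8 plasminogen-system genes and the 8 proteoglycan and matrix glycoprotein substrates held 0 calls in these fits of edgeR with all libraries. With the block and without pMSCV replicate 2, the matrix proteins Bgn (log2 fold change 1.90 ± 0.22, edgeR adjusted p = 0.00285 in SRF-RELA) and Sparc rose in SRF-RELA and SRF-ICA1L. Cilp, at 0 in several libraries, passed in the same lines, and the plasminogen activator Plat rose in SRF-ICA1L (log2 fold change 0.97 ± 0.18, edgeR adjusted p = 0.0213). Of 5 procollagen-processing genes outside the symbol rule, Tll1, a tolloid protease, passed in SRF-RELA against pMSCV and SRF, and Pcolce, an enhancer of procollagen C-proteinases, passed in SRF-RELA against pMSCV only without pMSCV replicate 2. The library left out held the highest control CPM of Bgn, Sparc, Cilp, Plat and Pcolce, so its removal raised their fold changes. These calls are therefore no separate support for a rise. The counts of Tll1 were 0, 0 and 4 in pMSCV, 0, 0 and 3 in SRF and 20, 2 and 29 in SRF-RELA, so the fitted fold change rests on libraries at or near 0 and is not given.

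Promoters were read from the RefSeq table for GRCm38.p6, as the 250 bases before each start. It held 28 promoters for 25 of the 41 members, among 32851 in all. A CArG box, the site type SRF binds, matched 0 of 28 (1.47% of all promoters), AP-1 as TGACTCA or TGAGTCA 2 (4.46%), FOXO as GTAAACA 3 (3.17%), the E-box CAGCTG 6 (13.0%) and NF-kappaB by its consensus 1 (5%), on both strands. The AP-1 matches were in Adam19 and Mmp13, the FOXO matches in Adam8, Adam19 and Mmp13, the NF-kappaB match in Adam19 and the E-box matches in Adam17, Adam19, Adamts2, Adamts12, Adamtsl5 and Timp2. Adamts14, Adamtsl3, Adamtsl4, Mmp14 and Timp3 held no match of these 5 kinds. A match is a description of the letters and not a site, and no match says only that these letters are not in this window.

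The promoters of 2 members that fell in SRF-RELA and hold a match are shown, chr7:139992563-139992812 and chr10:80348449-80348698, both read 5′ to 3′ from the minus strand, with the matched letters in capitals (FOXO in Adam8, on its other strand, and the E-box in Adamtsl5).
Adam8: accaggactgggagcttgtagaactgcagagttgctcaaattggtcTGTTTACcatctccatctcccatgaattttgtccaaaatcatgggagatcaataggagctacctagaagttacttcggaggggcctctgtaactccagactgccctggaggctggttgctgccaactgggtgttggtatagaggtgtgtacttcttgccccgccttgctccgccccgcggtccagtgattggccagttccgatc
Adamtsl5: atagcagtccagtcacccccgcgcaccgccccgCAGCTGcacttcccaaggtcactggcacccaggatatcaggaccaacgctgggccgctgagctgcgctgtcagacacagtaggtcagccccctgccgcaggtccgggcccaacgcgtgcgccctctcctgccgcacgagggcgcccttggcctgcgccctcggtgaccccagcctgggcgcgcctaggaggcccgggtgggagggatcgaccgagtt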

How the data were processed

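The deposited table holds whole-number counts per gene, which the authors made from TruSeq Stranded mRNA libraries. Per the submitters' processing notes the tools were FastQC 0.11.8, Trimmomatic 0.39, HISAT2 2.12.1 and featureCounts of Subread 2.0.0 on GRCm38. The annotation and the strand setting of the counting are not given in the sources used here. Each gene listed reaches 10 counts in 3 or more libraries, and genes low throughout are not analysed here. Libraries of a line differed far beyond sampling noise (chi-square over its degrees of freedom, 31.5 to 200), and none was a duplicate.

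All genes were fitted in 17 libraries with edgeR 4.0.16 (R 4.3.3, limma 3.58.1; TMM scaling, quasi-likelihood test, 6 groups, no covariate) and p-values adjusted by Benjamini-Hochberg over all genes; called means an adjusted p under 0.05. Values by library are CPM with TMM factors, and levels between genes are CPM per kilobase of GENCODE M21 exon. Standard errors were derived from the test, as the absolute log2 fold change over the square root of its F statistic. The replicate number paired the SRF-RELA, SRF-ICA1L, SRF and pMSCV libraries: after removal of line means, same-numbered libraries correlated at 0.392 to 0.789 and others at most at 0.114. These 12 libraries were therefore also fitted with the number as a block. SRF-FOXO1 paired with SRF only (0.22 to 0.33), and that pair was fitted with a block. Alternatives were DESeq2 1.42.0, RLE size factors, other filters, only the groups compared and each library left out; those of the blocked fit were chosen after seeing the data.

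Members named with all their values were those called in either fit, the 3 highest and 3 lowest in each line against pMSCV among those of at least 1 CPM, and a fixed set of well-known members. The members, gene lists and tests were chosen with earlier results of these data known.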

Additional observations from a re-analysis of the deposited data

How the results depend on the processing

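Of the 9 comparisons, 0 members were called in the fit of 17 libraries, and this held in each of them under RLE size factors, no filter and a stricter filter. Between SRF-FOXO1 and pMSCV, DESeq2 gave 7 members, a replicate block over all 17 libraries gave 7 (1021 genes in all), although the numbers of these lines do not pair, and leaving out one of their 6 libraries gave 0 to 5, with 5 without pMSCV replicate 2. Between SRF-FOXO1 and SRF, DESeq2 gave 3, only the groups compared 2 and the same with a replicate block 3. The replicate block in 12 libraries gave 3 for SRF-ICA1L and 8 for SRF-RELA against pMSCV; it changed no other call. The block over all 17 libraries gave 0 members in each of the 8 comparisons other than SRF-FOXO1 against pMSCV, so the 8, 3 and 3 blocked calls of SRF-RELA and SRF-ICA1L against pMSCV and of SRF-FOXO1 against SRF were not called in it.

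In the blocked fit, leaving out a library gave 0 to 2 members for SRF against pMSCV (0 with all libraries), 0 to 8 for SRF-ICA1L (3), 3 to 13 for SRF-RELA (8) and, against SRF, 0 to 5 for SRF-RELA (0). DESeq2 with the block gave 2, 7 and 8 against pMSCV in that order, and against SRF 1 for SRF-ICA1L and 3 for SRF-RELA. Shares of all genes are not set beside the ranges above or the DESeq2 counts of 7 and 8. These ranges and counts are therefore not results about the members. No called value changed sign under any alternative run. Depth was alike in all libraries, but Mmp9, Mmp13 and Mmp24 rest on few counts, and no difference between lines in them was called with all libraries. The cause of these changes was not tested.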
